A study of Homo sapiens with 12 samples.

Results

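RELN, PLXNB2, PODXL2 and ESAM, which encode a secreted guidance protein, a guidance receptor and a pair of adhesion proteins, were several times higher in the multiple myeloma cell line MM1R than in its sister line MM1S. The genes were picked by name because they were higher in untreated MM1R than in untreated MM1S, so that this untreated difference is given as a description without a test. They are 4 of the 43735 genes of the count table, and all 4 were among the 14085 genes with enough reads to be tested. The rule for picking the genes did not use their level in cells exposed to withaferin A (WA), a plant-derived compound, or the levels of their partners and neighbours. The WA cultures share their passages with the untreated ones, however, and earlier results of these data were known when the genes and lists were chosen.

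RNA was sequenced from 12 cultures in 4 groups of 3. MM1S (glucocorticoid-sensitive) and MM1R (glucocorticoid-resistant) are established lines from the tumor of a single myeloma patient, so that all groups share that origin and each line stands for its state alone. The groups were untreated MM1S, MM1S with WA, untreated MM1R and MM1R with WA, with 1 µM WA for 3 h in the WA groups, and the labels name no vehicle for the untreated cultures. Replicates were cultures of different passage number, 16, 22 and 23 for MM1S and 4, 6 and 7 for MM1R, with the same numbers in the untreated and the WA cultures. The lines have no passage number in common, so that passage and line cannot be told apart.

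The gene counts summed to 17625110 in the smallest library and to 19368343 in the largest. Levels are given as reads and as CPM (reads scaled to a common library size) after TMM normalization, and, where genes are set side by side, as CPM per kilobase of transcript (RPKM). The plasma cell markers checked (10 of 10) were above 3 reads in the library where each was highest. Of them, 9 had enough reads to be tested. Their summed level was 10900 to 12300 CPM in untreated MM1S and 17000 to 18700 CPM in untreated MM1R. The part of this difference in the results on the 4 genes was not tested. Markers of earlier B cells, neurons, fibroblasts, T cells and macrophages each summed to at most 65.5 CPM in any library, and those of neurons, the best known source of reelin, to 18.3 to 27.8 CPM in untreated MM1S and 19.6 to 31.2 CPM in untreated MM1R. MM1S of passage 16 stood apart from passages 22 and 23, with 740 genes (5.25%) at least 1.5-fold higher and 171 genes (1.21%) lower by the same factor in both its untreated and its WA library. The differences between groups in the 4 genes are therefore also given without it. No such count was made for the other passages, and cultures of MM1R passages 4 and 7 also differed widely.

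Reelin, the product of RELN, is a large secreted glycoprotein that directs the placement of migrating neurons in the developing cortex. It binds the lipoprotein receptors VLDLR and LRP8 on the receiving cell, and these pass the signal to the adaptor DAB1. Plexin-B2, encoded by PLXNB2, is a transmembrane receptor for class 4 semaphorins, and it regulates cell shape and migration through small GTPases. PODXL2 encodes endoglycan, a sialomucin of the CD34 family that can serve as a ligand of selectins. ESAM encodes an immunoglobulin-like adhesion molecule of the JAM family, best known from the junctions of endothelial cells and from platelets. In myeloma, adhesion and guidance molecules of this kind are studied for the homing and retention of plasma cells in the bone marrow.

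The 4 genes lie on different chromosomes. In GRCh37, RELN is on the minus strand of chromosome 7 from 103111828 to 103630105, with 65 exons in the canonical transcript, and PLXNB2 is on the minus strand of chromosome 22 from 50713408 to 50746075, with 37 exons. PODXL2 is on the plus strand of chromosome 3 from 127348028 to 127391645, with 8 exons, and ESAM is on the minus strand of chromosome 11 from 124622479 to 124632186, with 7 exons. The annotation holds an antisense gene across part of RELN and one across part of ESAM, and neither shares an exon base with these genes or has a row in the count table.

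Promoters are shown because the 4 genes were higher in the same line. RefSeq promoters (GRCh38.p14, 250 bases before the start to 50 after it) were matched for 3 of the 4 genes, RELN, PLXNB2 and PODXL2. The 250 bases before the start are printed 5′ to 3′ on the strand of the gene, with matches on either strand in capitals for 3 motifs, namely the GC box GGGCGG, the box whose 5 letters are its name, CCAAT, and the E-box, which reads CANNTG. The RELN sequence is chr7:103989659-103989908 (minus strand), the PLXNB2 sequence chr22:50301670-50301919 (minus strand) and the PODXL2 sequence chr3:127628935-127629184 (plus strand).
RELN: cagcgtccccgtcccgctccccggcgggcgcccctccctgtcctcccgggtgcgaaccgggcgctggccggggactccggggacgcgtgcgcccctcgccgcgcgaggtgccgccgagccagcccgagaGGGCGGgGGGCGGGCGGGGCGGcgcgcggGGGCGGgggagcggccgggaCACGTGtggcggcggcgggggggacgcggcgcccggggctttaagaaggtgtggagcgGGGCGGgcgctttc
PLXNB2: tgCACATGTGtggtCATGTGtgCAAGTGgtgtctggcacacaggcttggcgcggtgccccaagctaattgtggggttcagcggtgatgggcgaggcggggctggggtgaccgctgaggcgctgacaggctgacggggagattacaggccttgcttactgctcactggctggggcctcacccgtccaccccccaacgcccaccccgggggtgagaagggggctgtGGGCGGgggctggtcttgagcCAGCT
PODXL2: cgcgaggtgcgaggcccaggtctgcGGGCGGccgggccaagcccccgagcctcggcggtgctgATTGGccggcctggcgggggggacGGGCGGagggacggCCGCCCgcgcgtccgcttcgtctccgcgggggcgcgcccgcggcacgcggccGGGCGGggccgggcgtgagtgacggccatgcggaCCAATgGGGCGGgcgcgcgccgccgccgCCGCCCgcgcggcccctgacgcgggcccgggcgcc

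The RELN and PODXL2 promoters resembled each other in base composition, whereas the PLXNB2 promoter did not stand out in this respect. Over the 300 bases, G and C made up 83.3% in RELN and 84% in PODXL2, more than in 99.3% and 99.5% of the 35116 promoters of the table, and 66.7% in PLXNB2, more than in 71.4% of them (median 58.7%). GC boxes occurred 6 times in RELN and 6 times in PODXL2 but once in PLXNB2. Of all promoters, 45% held at least 1 and 5.14% at least 5. In RELN, 4 of the GC boxes form the dense run in the middle of the printed sequence, where 2 pairs of matches overlap. PLXNB2 held 5 E-boxes, and 1.79% of all promoters held at least 5. Of these, 1 runs across the start site and is cut off at the end of the print, and 2 overlap near the 5′ end. RELN held 1 E-box, CACGTG, and PODXL2 none, against 68.7% of all promoters with at least 1. CCAAT boxes were found 2 times in PODXL2, once on either strand, and in neither of the others. Of all promoters, 34.6% held at least 1 and 10.8% at least 2. The TATA box, searched as TATAAA, the AP-1 site, searched as TGANTCA, and the heat shock element, searched as GAANNTTC, had no match in any of the 3, and 11.5%, 7.71% and 6.77% of all promoters held one. These matches describe letters only.

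RELN had the lowest level for its length of the 4 genes and was low in MM1S. In untreated MM1S it was covered by 95, 169 and 160 reads in passages 16, 22 and 23, which is 4.92, 8.73 and 7.96 CPM. In untreated MM1R it was covered by 850, 982 and 634 reads in passages 4, 6 and 7, which is 44.3, 53.9 and 36.96 CPM. In bulk libraries a higher level per cell and a larger share of expressing cells cannot be told apart. The lowest MM1R culture, passage 7, was still 4.23-fold above the highest MM1S culture. The means were 7.20 ± 2.01 CPM and 45.0 ± 8.49 CPM (SD, n = 3), with a fitted log2 fold change of 2.64 (SE 0.215, 6.25-fold). With WA, RELN was at 5.15, 6.62 and 7.59 CPM in MM1S and at 46.6, 56.9 and 45.2 CPM in MM1R, in the same order of passages. The WA cultures of the lines were thus separated by a gap of 5.96-fold.

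PLXNB2 had the most reads of the 4 genes. Untreated MM1S had 891, 680 and 679 reads in passages 16, 22 and 23 (46.2, 35.1 and 33.8 CPM). Untreated MM1R had 2916, 2576 and 2608 reads in passages 4, 6 and 7 (151.8, 141.4 and 152.1 CPM). The MM1R cultures were close to each other, and the lowest of them was 3.06-fold above MM1S of passage 16, the highest MM1S culture. The means were 38.4 ± 6.80 CPM and 148.4 ± 6.10 CPM (SD, n = 3), with a log2 fold change of 1.95 (SE 0.174, 3.87-fold). With WA, the levels were 54.5, 35.2 and 41.3 CPM in MM1S and 156.9, 157.5 and 208.9 CPM in MM1R. Passage 7 of MM1R with WA was the highest of the 12 libraries, and passage 16 was again the highest of MM1S.

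PODXL2 had the fewest reads of the 4 genes in most MM1S libraries. It was covered by 116, 62 and 61 reads in untreated MM1S of passages 16, 22 and 23 (6.01, 3.20 and 3.03 CPM). In untreated MM1R of passages 4, 6 and 7 there were 425, 525 and 600 reads (22.1, 28.8 and 35.0 CPM). Passage 16 of MM1S was well above the other MM1S cultures, and the lowest MM1R culture, passage 4, remained 3.68-fold above it. The means were 4.08 ± 1.67 CPM and 28.6 ± 6.43 CPM (SD, n = 3), with a log2 fold change of 2.81 (SE 0.289, 7.01-fold). With WA, PODXL2 was at 5.74, 3.20 and 3.49 CPM in MM1S and at 20.6, 25.8 and 30.4 CPM in MM1R. The order of the passages within each line was nearly the same as without WA, with passage 16 highest in MM1S and passage 7 highest in MM1R.

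ESAM had the highest level for its length. Untreated MM1S had 547, 353 and 350 reads in passages 16, 22 and 23 (28.3, 18.2 and 17.4 CPM). Untreated MM1R had 1704, 1920 and 1952 reads in passages 4, 6 and 7 (88.7, 105.4 and 113.8 CPM). As for PODXL2, passage 16 was the highest in MM1S and passage 4 the lowest in MM1R, with a gap of 3.13-fold between these cultures. The means were 21.3 ± 6.09 CPM and 102.6 ± 12.8 CPM (SD, n = 3), with a log2 fold change of 2.27 (SE 0.23, 4.81-fold). With WA, ESAM was at 31.2, 17.0 and 19.3 CPM in MM1S and at 81.0, 105.3 and 96.6 CPM in MM1R. Markers of endothelial cells, the usual site of ESAM, were at or near 0 reads. Of 10 such markers, 8 (CDH5, TEK, TIE1, CLDN5, EMCN, ERG, ROBO4 and EGFL7) had at most 3 reads in every library, and the 10 together were at 0.0497 to 0.725 CPM in untreated MM1S and 0.22 to 0.408 CPM in untreated MM1R.

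**Figure D1:**
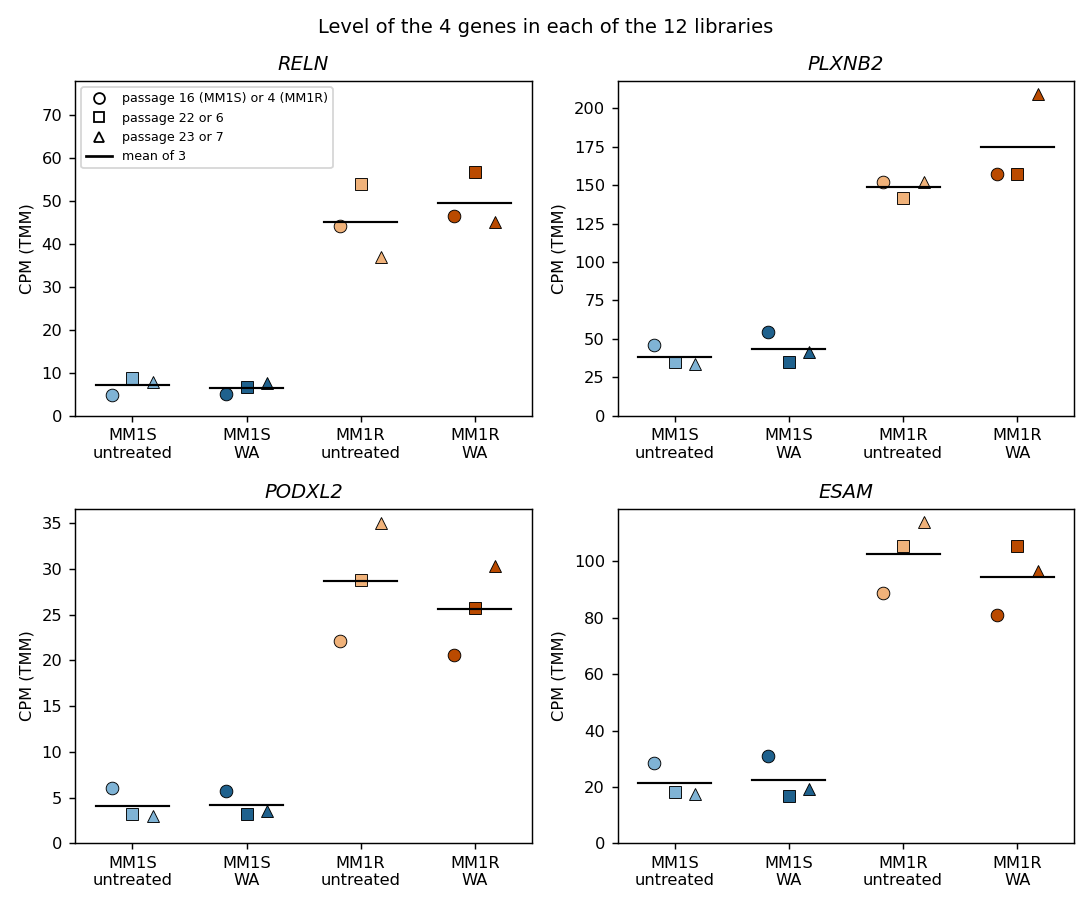
Level of RELN, PLXNB2, PODXL2 and ESAM in each of the 12 libraries, as CPM after TMM scaling (vertical axis, linear, from 0) in the 4 groups (horizontal axis). Points are cultures, their shape gives the passage, and black lines are means of 3. In every panel the 6 MM1R cultures lie above the 6 MM1S cultures, and passage 16 of MM1S (circle) is the lowest MM1S culture for RELN and the highest for the other 3 genes.

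Per length of the canonical transcript, the order of the 4 genes was the same in every library. In untreated MM1R it ran from ESAM at 56.1 ± 6.98 RPKM over PLXNB2 at 23.2 ± 0.952 and PODXL2 at 13.2 ± 2.96 to RELN at 3.85 ± 0.725 (SD, n = 3). In untreated MM1S the same order ran from 11.7 ± 3.33 over 5.98 ± 1.06 and 1.88 ± 0.769 to 0.615 ± 0.172 RPKM. The ranges of neighbours in this order did not overlap in any group. Among 12395 tested genes with a transcript length, ESAM in untreated MM1R was above 88.8% of the genes, PLXNB2 above 74.5%, PODXL2 above 62% and RELN above 36.9%. In untreated MM1S these ranks were 59%, 44.7%, 26.9% and 15.5%. ESAM in MM1R was therefore a well-expressed transcript for its length, whereas RELN stayed below the median of 7.73 RPKM even in MM1R.

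With WA in both lines, all 4 genes were again higher in MM1R. The levels compared are those of 6 libraries that the rule for picking the genes did not use, although earlier results of these data were known. These libraries carry the same passage numbers as the untreated libraries, with which they deviated together to varying degrees. The spread was estimated over all 12 libraries. The log2 fold change was 2.94 for RELN (SE 0.218, adjusted p = 1.9e-06), 2.0 for PLXNB2 (SE 0.174, adjusted p = 8.9e-06), 2.62 for PODXL2 (SE 0.289, adjusted p = 7.2e-05) and 2.07 for ESAM (SE 0.229, adjusted p = 7.5e-05) by the quasi-likelihood test of edgeR, adjusted over all genes after Benjamini and Hochberg (n = 3 per group). With the 6 WA libraries alone in the edgeR fit, the adjusted p was 2e-05, 0.00028, 0.00032 and 0.00054. In linear terms the WA cultures of MM1R were 7.68-fold, 3.99-fold, 6.16-fold and 4.195-fold higher. All 4 passed the limits set for the lines (adjusted p under 0.01 and at least 1 on the log2 scale), which 1.63% of all tested genes passed as higher and 1.41% as lower in MM1R. In the untreated lines, whose difference served to choose the genes, these shares were 1.48% and 1.49%. The ranges of the lines did not overlap for any of the 4 genes, with WA or without. Among all tested genes, 14.8% were higher in MM1R without overlap in the WA cultures and 16.6% in the untreated cultures.

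The size of the difference moved moderately with the cultures of MM1S passage 16. Without both its libraries, the log2 fold change with WA was 2.80 for RELN, 2.18 for PLXNB2, 2.93 for PODXL2 and 2.37 for ESAM, with a largest adjusted p of 1.6e-06 in the same edgeR test, and the untreated values were 2.43, 2.10, 3.19 and 2.52. Leaving out 1 of the 12 libraries at a time kept the WA value between 2.80 and 3.07 for RELN, 1.86 and 2.18 for PLXNB2, 2.47 and 2.93 for PODXL2 and 1.90 and 2.37 for ESAM. The highest adjusted p among these edgeR fits was 0.00077, for PODXL2.

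**Figure D2:**
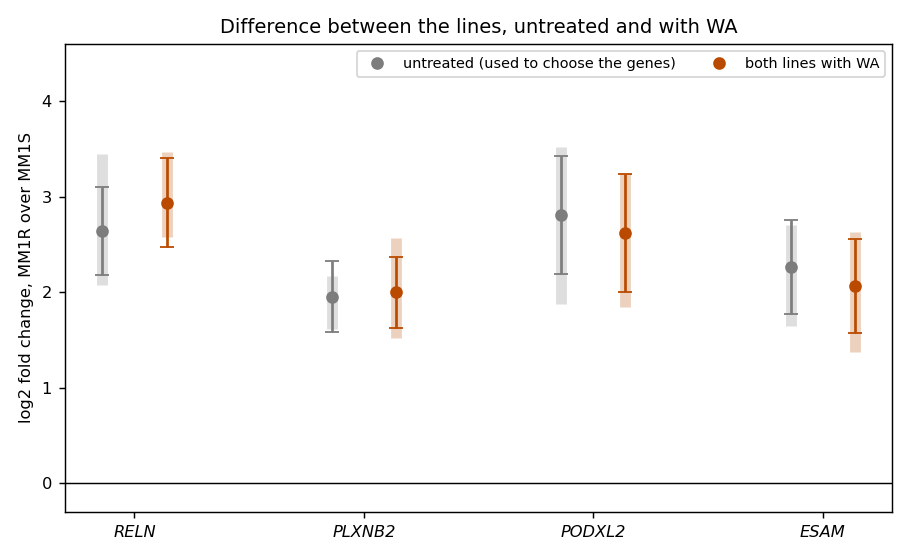
Log2 fold change of MM1R over MM1S (vertical axis) for the 4 genes, untreated (grey, the difference the genes were chosen on) and with WA in both lines (orange). Points and capped bars are the fitted value and its 95% interval, and pale bars run from the smallest to the largest ratio of single cultures. All values lie above 0, with fitted values from 1.95 to 2.94.

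Whether WA moved the 4 genes within a line was compared next. The untreated libraries of these comparisons also served to choose the genes. In MM1R, the log2 fold change with WA was 0.14 for RELN (95% interval -0.28 to 0.56, adjusted p = 0.71), 0.23 for PLXNB2 (-0.12 to 0.59, adjusted p = 0.4), -0.16 for PODXL2 (-0.72 to 0.39, adjusted p = 0.75) and -0.12 for ESAM (-0.59 to 0.34, adjusted p = 0.78), by the same edgeR test. In MM1S it was -0.16 for RELN (-0.63 to 0.31, adjusted p = 0.72), 0.19 for PLXNB2 (-0.18 to 0.55, adjusted p = 0.56), 0.02 for PODXL2 (-0.62 to 0.67, adjusted p = 0.98) and 0.08 for ESAM (-0.41 to 0.56, adjusted p = 0.89), by the same edgeR test. None of the 4 (0) passed an adjusted p of 0.05 in either line by edgeR or by DESeq2, and 0 had an unadjusted p under 0.05. An unadjusted p under 0.05 by edgeR was reached by 14.7% of all genes as higher and 13.6% as lower in MM1R. In MM1S these shares were 13.9% and 11%. Without both libraries of passage 16, the values in MM1S were -0.23, 0.15, 0.10 and 0.02 for RELN, PLXNB2, PODXL2 and ESAM. Of all tested genes, 7.55% rose and 6.46% fell with WA in MM1R, and 6.25% rose and 4.23% fell in MM1S. The intervals leave room for changes in either direction. In MM1R they reach up to 0.59 for PLXNB2 (1.5-fold higher) and down to -0.72 for PODXL2. In MM1S they reach up to 0.67 for PODXL2 and down to -0.63 for RELN.

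The pairs of cultures of the same passage showed how small these differences were. PLXNB2 was higher with WA in all 6 pairs, by log2 differences of 0.05, 0.16 and 0.46 in passages 4, 6 and 7 of MM1R and of 0.24, 0.0041 and 0.29 in passages 16, 22 and 23 of MM1S. Among all tested genes, 20% were higher in all 6 pairs. In MM1R the untreated range of PLXNB2 ended at 152.1 CPM and the WA range began at 156.9 CPM, a gap of 1.03-fold, and 17.3% of all genes were higher with WA in MM1R without overlap. RELN was also higher in all 3 pairs of MM1R (0.07, 0.08 and 0.29), as were 29% of all genes. PODXL2 was lower in all 3 (-0.10, -0.16 and -0.20), and so was ESAM (-0.13, -0.0013 and -0.24), as were 29% of all genes. In MM1S these 3 genes went either way from passage to passage, and RELN ranged from -0.38 in passage 22 to 0.06 in passage 16. When passage was entered as a replicate block, the adjusted p in MM1R was 0.32 for RELN, 0.1 for PLXNB2, 0.28 for PODXL2 and 0.33 for ESAM by edgeR.

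The effect of WA was not shown to differ between the lines for any of the 4 genes. One term of this comparison is the untreated difference between the lines, on which the genes were chosen, so that the values serve as a description. The log2 fold change of the difference, MM1R minus MM1S, was 0.30 for RELN (95% interval -0.34 to 0.93), 0.05 for PLXNB2 (-0.47 to 0.56), -0.19 for PODXL2 (-1.04 to 0.67) and -0.20 for ESAM (-0.87 to 0.48), each with an adjusted p of 1 in the edgeR test of the interaction. No tested gene (0%) passed this test, and DESeq2 called 1. An unadjusted p under 0.05 was reached by 97 genes, 0.39% of all genes as higher and 0.298% as lower. That is fewer than such a limit passes where no gene differs. The test, which had no term for passage, was thus conservative and could miss differences. With passage as a replicate block, edgeR called 0 genes and DESeq2 called 6, none of them among the 4. The intervals are wide, and for PODXL2 the interval reaches a factor of 2. Without both libraries of MM1S passage 16, the values were 0.37, 0.08, -0.27 and -0.15.

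**Figure D3:**
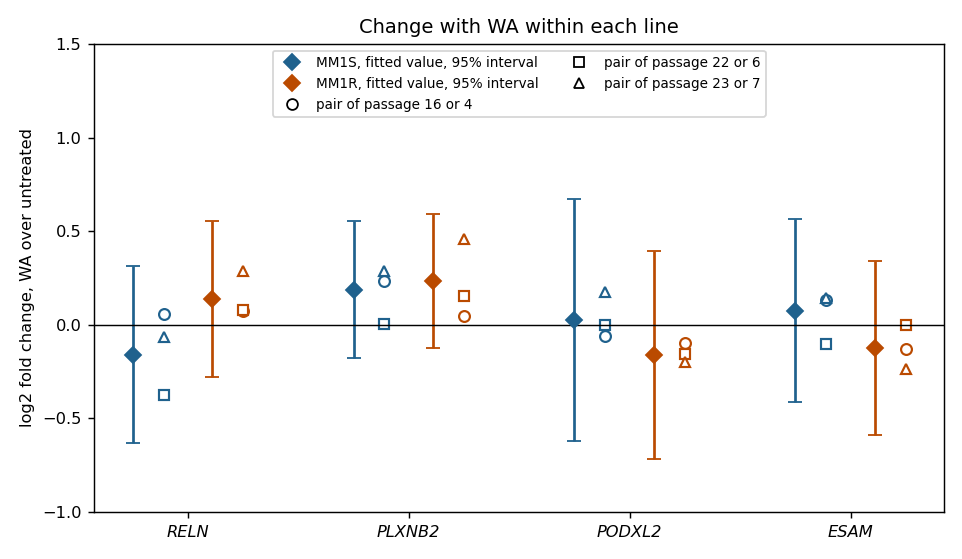
Log2 fold change with WA over untreated (vertical axis) for the 4 genes in MM1S (blue) and MM1R (orange). Diamonds and capped bars are the fitted value and its 95% interval (n = 3 per group), and open symbols are the 3 pairs of cultures of the same passage. Every interval includes 0, and the PLXNB2 pairs all lie at or above 0.

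Within the groups, PODXL2 and ESAM moved together from culture to culture. After the group means were taken off, their log2 levels correlated with r = 0.947 over the 12 libraries, PLXNB2 correlated with PODXL2 at r = 0.836 and with ESAM at r = 0.796, and RELN was opposed to all 3 (r = -0.727 with PLXNB2, -0.747 with PODXL2 and -0.656 with ESAM). These are descriptions over libraries that share passages in pairs. Passage 16 of MM1S deviated in the same direction as this pattern. In its untreated and WA libraries RELN was at 0.613 and 0.743 times the mean of passages 22 and 23, whereas PODXL2 was at 1.8 and 1.62 times, ESAM at 1.57 and 1.7 times and PLXNB2 at 1.34 and 1.42 times. Over the 10 libraries without it, PODXL2 and ESAM had r = 0.851, PLXNB2 had 0.515 with PODXL2 and 0.242 with ESAM, and RELN had -0.283 with PLXNB2, -0.191 with PODXL2 and 0.208 with ESAM. Within the 6 MM1R libraries, PODXL2 and ESAM had r = 0.859, PLXNB2 had 0.503 with PODXL2 and 0.111 with ESAM, and RELN had -0.497 with PLXNB2, -0.266 with PODXL2 and 0.108 with ESAM.

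The genes whose level over the 12 libraries was most like that of each of the 4 were looked up among the other 14084 tested genes, by the correlation of log2 CPM. Since all of these genes differ between the lines, the values mainly carry that difference. PODXL2 and ESAM were each other's closest match (r = 0.997). PODXL2 was followed by HCFC1R1 (r = 0.993) and PCSK1N (r = 0.990), and ESAM by ABCG2, a drug efflux transporter (r = 0.992), and PCSK1N (r = 0.989). RELN was closest to CTAG2, a cancer-testis antigen (r = 0.990), ADGRE5, the adhesion receptor CD97 (r = 0.989), and CDKN2A, a cell cycle inhibitor (r = 0.989). CTAG2 and CDKN2A had at most 6 and 5 reads in MM1S and at least 787 and 1044 in MM1R, so that they were close to absent in one line, unlike RELN with its 95 to 169 reads. PLXNB2 was closest to ANXA9 (r = 0.994), the tubulin gene TUBB4A (r = 0.989) and CD52 (r = 0.989).

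The binding partners of the 4 genes were present to very different degrees, and none of the named partners passed both limits between the untreated lines. For RELN, the receptor LRP8 was well covered, at 126.1 ± 3.75 CPM in untreated MM1S and 94.8 ± 9.41 CPM in untreated MM1R (SD, n = 3; log2 fold change -0.41, adjusted p = 0.11, edgeR). The other receptor, VLDLR, was at 4.91 and 3.75 CPM, and the adaptor DAB1 was below 1 CPM in both lines (0.662 and 0.915 CPM). The ligand was thus higher in MM1R, while the values of its better covered receptor were lower there without passing the test.

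For PLXNB2, the class 4 semaphorins differed widely in level. SEMA4A was at 1174 CPM in untreated MM1S and 1572 CPM in untreated MM1R (log2 fold change 0.42, adjusted p = 0.031, edgeR), short of both limits. SEMA4D was at 160.1 and 158.2 CPM. SEMA4B was at 54.3 and 62.4 CPM, SEMA4C at 8.78 and 5.92 CPM and SEMA4G at 0.667 and 1.14 CPM, and angiogenin (ANG), another ligand of plexin-B2, was at 1.5 and 2.1 CPM. The exchange factors ARHGEF11 and ARHGEF12, which link B-type plexins to RhoA, were at 40.2 and 38.2 CPM and at 239.9 and 242.2 CPM. PLXNB2 was the main B-type plexin of these cells, since PLXNB1 reached 0.104 RPKM in untreated MM1S and 0.141 RPKM in untreated MM1R and PLXNB3 0.0193 and 0.00595 RPKM, against 5.98 and 23.2 RPKM for PLXNB2.

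For PODXL2, the related sialomucin PODXL was at 93.3 CPM in untreated MM1S and 75.6 CPM in untreated MM1R (log2 fold change -0.30, SE 0.0974), while CD34 was too low to be tested, at 0.0345 and 0.0366 CPM. Per length, PODXL in MM1S (15.6 RPKM) was above PODXL2 (1.88 RPKM), whereas in MM1R they were at 12.6 and 13.2 RPKM. SELPLG, the P-selectin ligand, was at 859.8 and 888.9 CPM. For ESAM, the related F11R (JAM-A) was at 218.8 CPM in untreated MM1S and 167.7 CPM in untreated MM1R (log2 fold change -0.38, adjusted p = 0.023, edgeR), short of both limits. JAM2 and JAM3 were low, at 1.33 and 0.87 CPM and at 3.19 and 1.97 CPM. MAGI1, a scaffold that binds ESAM, was at 14.7 CPM in both lines. ESAM in MM1R, at 56.1 RPKM, was above F11R, at 36.1 RPKM, while in MM1S ESAM was at 11.7 and F11R at 47.2 RPKM.

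In the wider pathways, no gene was called higher in untreated MM1R by edgeR. Of 171 genes in 7 lists of guidance and adhesion genes, which leave out the 4 genes themselves, 122 were tested. Between the untreated lines 0 were higher in MM1R (0%) and 4 were lower (3.28%), against the 1.48% and 1.49% of all genes. At an unadjusted p under 0.05, 21 were higher (17.2%) and 28 lower (23%), against 13.9% and 12% of all genes, and DESeq2 called 1 higher, ICAM1, and 6 lower. The 4 lower genes were PLXND1, a plexin that binds SEMA3E, at -1.96 on the log2 scale (SE 0.297, adjusted p = 0.00083), SDC4, a cell surface proteoglycan, with -1.21 (SE 0.224, adjusted p = 0.0031), ALCAM, an immunoglobulin-like adhesion molecule, with -1.09 (SE 0.195, adjusted p = 0.0025), and ITGA4, the integrin chain of VLA-4, with -1.08 (SE 0.16, adjusted p = 0.00067), by edgeR's quasi-likelihood test. PLXND1 thus went the opposite way to PLXNB2, from 8.34 CPM in untreated MM1S to 2.15 CPM in untreated MM1R. The median log2 fold change per list lay between -0.18, for the 20 tested genes of the JAM, ESAM and nectin list, and 0.26, for the 15 of the list of other guidance ligands and receptors, with 0.01 over all tested genes. No gene passed in the lists of the reelin pathway (18 tested), the semaphorins (13), the other guidance genes, the sialomucins and selectin ligands (13) or the JAM, ESAM and nectin genes. The call of PLXND1 held in all 12 fits with 1 library left out, with a value of -1.63 without untreated MM1S of passage 16. SDC4 lost it without untreated MM1S of passage 22 or 23 or untreated MM1R of passage 4 or 6, ALCAM without untreated MM1S of passage 22 or 23 or untreated MM1R of passage 6 or 7, and ITGA4 without untreated MM1R of passage 7. The count of 4 was 2 without untreated MM1S of passage 22 or 23 or untreated MM1R of passage 7, 7 without MM1S with WA of passage 16, and 10 without both libraries of passage 16.

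**Figure D4:**
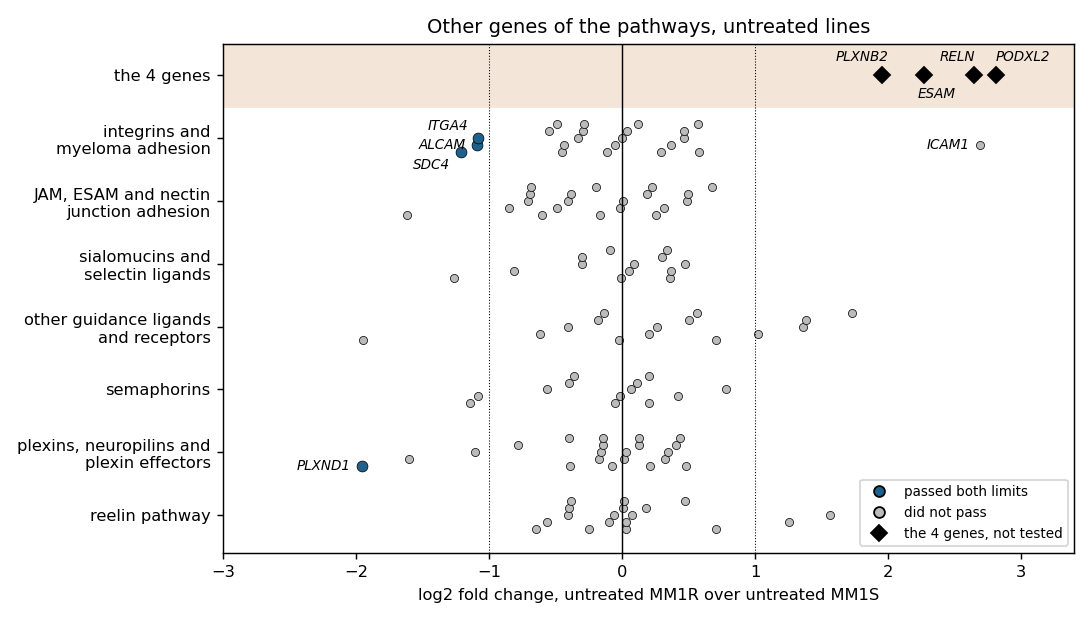
Log2 fold change of untreated MM1R over untreated MM1S (horizontal axis) for the 122 tested genes of 7 lists (rows) and for the 4 genes (top row, diamonds, chosen on this difference). Blue points passed the limits on the adjusted p (0.01) and on the fold (dotted lines, 1 on the log2 scale), and grey points did not. The 4 blue genes PLXND1, SDC4, ALCAM and ITGA4 are all lower in MM1R, and ICAM1 lies among the 4 diamonds at 2.69 without passing.

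With WA in both lines, the same 4 genes were lower in MM1R (3.28% of the 122), with log2 fold changes of -2.07, -1.18, -1.02 and -1.14 for PLXND1, SDC4, ALCAM and ITGA4, and 1 gene was higher (0.82%), against 1.63% and 1.41% of all genes. The higher gene was ICAM1, the ligand of the integrin LFA-1, whose log2 fold change was 3.02 (SE 0.604 and adjusted p = 0.0055, edgeR), close to those of RELN and PODXL2. In the untreated lines ICAM1 was at 2.69 (SE 0.601, adjusted p = 0.011, edgeR), just short of the limit on p, with 9.54 ± 9.28 CPM in MM1S and 61.4 CPM in MM1R. The calls of ICAM1 and ALCAM with WA were lost without MM1S with WA of passage 22 or 23 or MM1R with WA of passage 4, 6 or 7, that of SDC4 without MM1S with WA of passage 22 or 23 or MM1R with WA of passage 6 or 7, and that of ITGA4 without MM1S with WA of passage 22. Those of ALCAM and SDC4 were also lost with the 6 WA libraries alone, and that of ALCAM with a filter of 10 reads in every library, whereas that of PLXND1 held in all 12 fits. Without both libraries of MM1S passage 16 the log2 fold change of ICAM1 with WA was 4.12. Of the 5 calls, 1 was left without MM1S with WA of passage 22, 2 were left without MM1S with WA of passage 23 or MM1R with WA of passage 6 or 7, and 3 without MM1R with WA of passage 4, against 9 without both libraries of passage 16.

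With WA, the share of list genes called was not above that of all genes, in either direction or line. In MM1R, 7 of the 122 genes rose (5.74%) and 4 fell (3.28%) in the same edgeR test, against 7.55% and 6.46% of all genes. Those that rose were PIK3R1, RND1, SEMA4D, SEMA4B, EFNB1, NECTIN3 and ITGA3, and those that fell included SRC, AKT1 and PVR. In MM1S, 6 rose (4.92%) and 2 fell (1.64%), against 6.25% and 4.23% of all genes, namely PIK3R1, RND1, SEMA4D, EFNB1, NECTIN3 and NECTIN1 upward and AKT1 among those downward. SEMA4D, a class 4 semaphorin, rose by a log2 fold change of 0.81 in MM1R (SE 0.132) and 0.89 in MM1S (SE 0.132). RND1, a small GTPase that binds plexins, rose by 1.12 (SE 0.253) and 0.91 (SE 0.25). PIK3R1, the regulatory subunit of PI3-kinase, which acts downstream of reelin, rose by 1.02 (SE 0.165) and 0.74 (SE 0.162). Of these, the calls of PIK3R1, SEMA4D and SEMA4B in MM1R and of SEMA4D in MM1S held with each library left out. The call of AKT1 held in 1 of 12 such fits in MM1R and in 3 of 12 in MM1S, that of NECTIN1 in 3 of 12, that of ITGA3 in MM1R in 5 of 12, and in MM1S those of RND1 and EFNB1 in 6 and 7 of 12. Without both libraries of MM1S passage 16, RND1, EFNB1, NECTIN1 and AKT1 were not called in MM1S. The count of 11 in MM1R was 25 with passage as a replicate block, 18 without both libraries of MM1S passage 16, and 5 to 7 when any of the 6 MM1R libraries was left out. The count of 8 in MM1S was 20 with the block, 1 without untreated MM1S of passage 22, 3 without untreated MM1S of passage 23, MM1S with WA of passage 16 or both libraries of passage 16, and 5 without untreated MM1S of passage 16, MM1S with WA of passage 23 or untreated MM1R of passage 6.

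Genes beside the 4 on their chromosomes were compared in the same way. Of 24 neighbours, the nearest 3 with a read on either side of each gene, 20 were tested and 0 passed both limits between the untreated lines. Of all tested genes, 1.48% passed as higher and 1.49% as lower. At an unadjusted p under 0.05, 5 of the 20 were higher (25%) and 0 lower, against 13.9% and 12% of all genes, and DESeq2 called 0. Among the tested neighbours of RELN and of ESAM, the lowest adjusted p was 0.83 and 0.35 by edgeR. ORC5 and PSMC2, beside RELN, had log2 fold changes of 0.07 (SE 0.164) and 0.01 (SE 0.124), and MSANTD2 and NRGN, beside ESAM, of -0.05 (SE 0.188) and 0.03 (SE 0.167). VSIG2, a relative of ESAM that lies 0.3 kb from it, was at 0.683 CPM in untreated MM1S and 0.513 CPM in untreated MM1R.

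Around PLXNB2, most neighbours had values above 0 in the untreated lines, without passing both limits there. Over all 20 tested neighbours, 13 had a value above 0. DENND6B, which lies 1.4 kb from PLXNB2, was at 23.4 CPM in untreated MM1S and 45.9 CPM in untreated MM1R, a log2 difference of 0.97 (SE 0.163, adjusted p = 0.0016, edgeR), just under the limit of 1. With WA in both lines it was at 1.03 (adjusted p = 0.001, edgeR) and passed both limits. On the other side, MAPK11, 4.2 kb away, was at 0.80 (SE 0.244, adjusted p = 0.048, edgeR), and MAPK12 at 0.345 (SE 0.16, adjusted p = 0.19, edgeR). Beyond DENND6B, PPP6R2 was at 0.38 (SE 0.106, adjusted p = 0.033, edgeR), while HDAC10 and SBF1 were at -0.15 (SE 0.2) and 0.13 (SE 0.12). Beside PODXL2, ABTB1, which begins 0.1 kb from its end, was at -0.18 (SE 0.291) and MCM2, on the other side, at -0.24 (SE 0.148). MGLL, 16.3 kb away, was at 0.62 (SE 0.113, adjusted p = 0.0028, edgeR). These differences were smaller than those of the 4 genes, which were chosen for theirs, so that this order is no result.

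**Figure D5:**
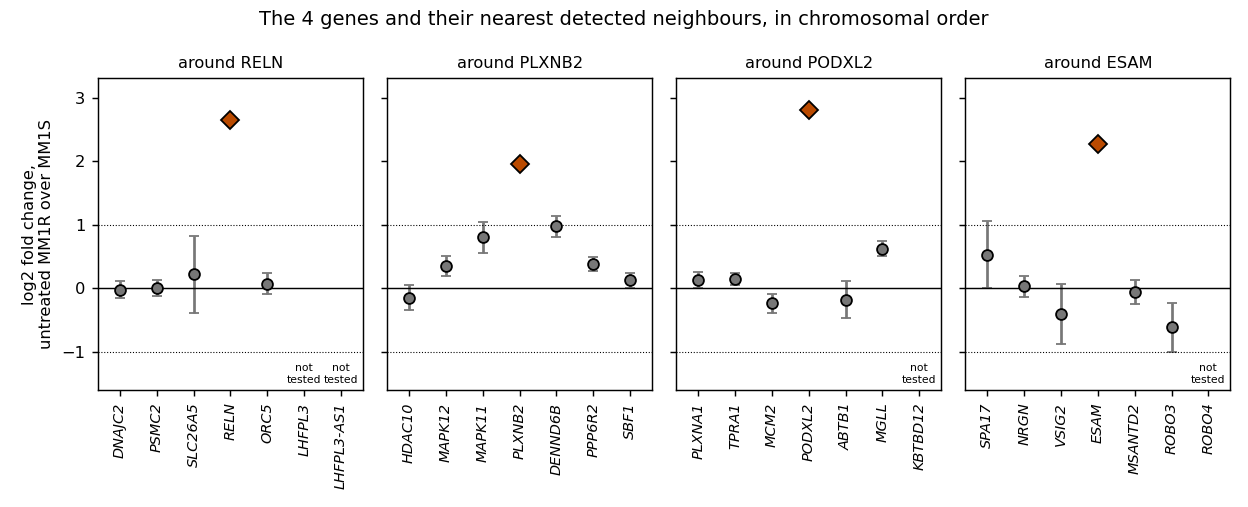
Log2 fold change of untreated MM1R over untreated MM1S (vertical axis) for each of the 4 genes (orange diamonds, chosen on this difference) and the nearest 3 detected genes on either side in chromosomal order (grey points, bars are 1 SE). Dotted lines mark a log2 fold change of 1 in size. Of the tested neighbours, DENND6B beside PLXNB2 is the highest at 0.97, and the height of the 4 diamonds reflects how these genes were chosen.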

How the data were processed

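RNA from 12 cultures (3 per group) was paired-end sequenced. Per the labels and the methods of the study, the authors checked reads with FastQC 0.11.5, mapped them with STAR 2.7.3a to hg19 and deposited raw counts of reads on each gene, without normalization. Which annotation and strand setting were used for counting is not given in the sources used here. A table normalized with DESeq2 was also deposited and not used. No column was left without a sample (0).

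Libraries were grouped by line, treatment and passage from the sample labels. The 4 genes, the lists and the tests were chosen with earlier results of these data known. Genes were kept by edgeR's filterByExpr (minimum count 10), scaled by TMM and tested with the quasi-likelihood test of edgeR 4.0.16 (R 4.3.3) in 1 fit of all 12 libraries, two-sided, with Benjamini-Hochberg adjustment over 14085 genes. Between lines, calls needed an adjusted p under 0.01 and at least 1 on the log2 scale; for WA, an adjusted p under 0.05. Passage ratios and pairs used CPM plus 0.5, and correlations a prior count of 2. RPKM used canonical GENCODE transcripts of GRCh37, which may differ from the models counted. Counts come from reads without molecular identifiers.

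Named genes were the 4 genes, the 3 genes most correlated with each, their 3 nearest neighbours with a read on either side, fixed binding partners, and list genes past the limits; list genes past the WA limits are named too, apart from results not reported here, and PLXNB3, chosen after its values were seen. ICAM1 is named as a call.

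Cultures of the same passage deviated together from their group means, as measured by a correlation r. In MM1S, r was 0.713 at passage 16, 0.253 at passage 22 and 0.44 at passage 23. The highest r of the untreated culture with a WA culture of another passage was -0.442, 0.309 and 0.366. Passage 22 was thus not closest to its own passage, and passage 23 was so by little. In MM1R, r was 0.39 at passage 4, 0.178 at passage 6 and 0.216 at passage 7, against at most -0.162, -0.0749 and 0.108 with other passages. Passage number, which the labels give, served to form the pairs of cultures and the replicate block among the alternatives. The main fit had no term for passage, so that its WA tests were unpaired. The chi-square per degree of freedom between replicate libraries was 8.06 to 44.3, so that none was deposited more than once. Between passages 4 and 7 of MM1R, this chi-square was 41.8 in the untreated and 41.4 in the WA libraries. Between passage 16 of MM1S and passages 22 and 23, it was 23.1 and 31.6 untreated and 44.3 and 38 with WA. The methods call replicates biologically independent, and p-values measure the spread between cultures of 1 line.

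Alternatives were DESeq2 1.42.0, its size factors in edgeR, no filter, at least 10 reads in every library, only the 6 libraries compared, passage as replicate block (edgeR and DESeq2) and each library left out in turn. Leaving out both libraries of MM1S passage 16 was added after the data were seen. The tests were tested on simulated data.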

Additional observations from a re-analysis of the deposited data

How the results depend on the processing

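For the 4 genes, the difference between the lines kept its direction and, with WA, its side of the limits under every alternative run, with untreated log2 fold changes of 2.43 to 2.65 for RELN, 1.94 to 2.10 for PLXNB2, 2.80 to 3.19 for PODXL2 and 2.26 to 2.52 for ESAM outside the fits with 1 library left out. None of the WA changes of the 4 genes passed under any alternative, and the replicate block changed no call of the 4 genes. Signs of these uncalled changes turned when 1 library was left out. The ranges over such fits were -0.32 to 0.0046 for PODXL2 with WA in MM1R, -0.00085 to 0.34, -0.28 to 0.41 and -0.23 to 0.33 for PLXNB2, PODXL2 and ESAM with WA in MM1S, and -0.11 to 0.23, -0.57 to 0.12 and -0.46 to 0.11 for the interaction of line and WA in PLXNB2, PODXL2 and ESAM. The cause was not tested.

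Counts over all genes moved more. Between the untreated lines, 419 genes were called, 811 with no filter, 234 with at least 10 reads in every library, 755 without both libraries of MM1S passage 16, and 268 to 537 with 1 library left out. With WA in both lines these counts were 428, 819, 222, 817 and 264 to 649. WA called 1973 genes in MM1R, 4094 with the replicate block in edgeR, 3424 with it in DESeq2 and 950 to 2396 with 1 library left out. In MM1S it called 1476, 3399, 2930, 690 without both libraries of passage 16, and 726 to 1621 with 1 left out. For the interaction, edgeR called 0 genes, 11 with no filter, and DESeq2 called 1, or 6 with the replicate block. In MM1S, PODXL2 rests on 60 to 116 reads per library and RELN on 95 to 169.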
